A study of Homo sapiens with 4 samples.

Results

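ADAMTS14 and 5 genes related to it by family or by position were followed in nascent RNA from cells treated to deplete the cohesin subunit RAD21. The 6 members were taken by gene symbol from the 60048 genes of the deposited table. They are ADAMTS14, the other procollagen N-proteinases ADAMTS2 and ADAMTS3, and PRF1, TBATA and SGPL1, which lie beside ADAMTS14 on chromosome 10. ADAMTS14 was picked because its signal was lower after auxin, so its values are given as a description with no test. The other 5 were taken by name and position and not for their own values.

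The cells were HCT116, a human colorectal carcinoma line, of genotype RAD21-mAC in all 4 libraries, in which RAD21 protein carries a tag that leads to its degradation when auxin is added. The control group (2 libraries) received DMSO, and the auxin group (2 libraries) was given the auxin indole-3-acetic acid at 0.5 mM for 3 h. All cells were labelled with 0.5 mM 5-ethynyl uridine (EU) for 20 min, and the RNA made in that time was captured and sequenced (EU-seq). The labels do not say how the tagged line obtained the receptor that auxin needs, whether it is a single clone, or whether the replicates came from separate cultures, so p-values measure only the spread between these libraries. No group received auxin without the tagged RAD21, and so an effect of the compound itself and an effect of RAD21 loss cannot be told apart.

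The procollagen N-proteinases are secreted zinc metalloproteases that cut the amino-terminal propeptide from fibrillar procollagens, a step that lets collagen molecules assemble into fibrils. ADAMTS2 is best known for this cleavage in skin, where its loss causes a fragile-skin form of Ehlers-Danlos syndrome, and ADAMTS3 is also known for activating the lymphatic growth factor VEGF-C together with CCBE1. ADAMTS14 shares the propeptide-cleaving activity. Of the neighbours, PRF1 encodes perforin, the pore-forming protein of cytotoxic lymphocytes, TBATA encodes a protein known from thymus, brain and testis, and SGPL1 encodes sphingosine-1-phosphate lyase, which irreversibly breaks down sphingosine-1-phosphate. Cohesin holds chromosomes in loops, within which promoters meet distal enhancers.

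In GRCh38, ADAMTS14 (ENSG00000138316) lies on the plus strand at chr10:70672506-70762441. PRF1 (ENSG00000180644) lies upstream on the minus strand at chr10:70597348-70602759, so that the starts of PRF1 and ADAMTS14 are 69.7 kb apart and point away from each other. TBATA (ENSG00000166220, minus strand, chr10:70771239-70785401) runs toward ADAMTS14, and its near edge is 8.80 kb beyond the end of that gene. SGPL1 (ENSG00000166224, plus strand, chr10:70815948-70881184) begins 53.5 kb beyond that end. These 4 genes overlap no other gene of the table. ADAMTS2 (ENSG00000087116) is on chromosome 5, minus strand, 179110853 to 179345461, and ADAMTS3 (ENSG00000156140) on chromosome 4, minus strand, 72280969 to 72569221, where its span overlaps the lncRNA gene AC095056.1. All 6 are protein-coding. Whether the authors summed signal over exons or over the whole span is not given in the sources used here, and levels per kb below use the whole span.

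The promoters of the 4 chromosome 10 genes are shown because ADAMTS14, PRF1 and TBATA had lower signal in both auxin libraries than in both control libraries while SGPL1 did not. That pattern was found in 19.6% of all tested genes, and also in ADAMTS3 at a log2 fold change of -0.048. ADAMTS14 was picked for its fall, so the split is a reason for display and no result. Each promoter is the 250 bases before the RefSeq start (GRCh38.p14), read 5′ to 3′ on the gene's own strand, with matches to the GC box GGGCGG on either strand in capitals.
ADAMTS14 (chr10:70672256-70672505, plus strand): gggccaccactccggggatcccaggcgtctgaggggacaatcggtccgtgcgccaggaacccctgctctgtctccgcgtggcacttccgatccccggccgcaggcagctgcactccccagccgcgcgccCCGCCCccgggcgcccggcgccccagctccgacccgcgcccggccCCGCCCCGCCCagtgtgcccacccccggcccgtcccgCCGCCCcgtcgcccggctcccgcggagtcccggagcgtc
PRF1 (chr10:70602742-70602991, minus strand): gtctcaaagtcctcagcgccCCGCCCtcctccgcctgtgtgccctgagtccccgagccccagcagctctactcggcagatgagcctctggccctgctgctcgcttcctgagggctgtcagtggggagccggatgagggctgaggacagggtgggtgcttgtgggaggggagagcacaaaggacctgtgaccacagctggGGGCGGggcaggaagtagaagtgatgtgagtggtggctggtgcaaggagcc
TBATA (chr10:70785378-70785627, minus strand): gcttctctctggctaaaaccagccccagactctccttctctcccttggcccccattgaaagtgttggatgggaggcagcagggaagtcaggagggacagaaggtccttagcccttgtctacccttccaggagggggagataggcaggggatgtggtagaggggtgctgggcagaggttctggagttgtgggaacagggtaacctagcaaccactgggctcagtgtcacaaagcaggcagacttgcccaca
SGPL1 (chr10:70815698-70815947, plus strand): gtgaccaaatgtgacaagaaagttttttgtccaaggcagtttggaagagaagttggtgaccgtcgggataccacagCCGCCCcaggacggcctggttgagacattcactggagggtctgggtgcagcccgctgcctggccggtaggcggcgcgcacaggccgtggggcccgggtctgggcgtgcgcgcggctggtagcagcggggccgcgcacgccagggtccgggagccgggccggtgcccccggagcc

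The promoters of ADAMTS14, PRF1 and TBATA differed in base composition. That of ADAMTS14 is 80.4% G and C with 35 CpG dinucleotides, PRF1 has 65.6% and 8, TBATA 57.6% and 0, and SGPL1 68.8% and 23, against a median of 58.0% G and C over 35116 RefSeq promoters. The paralogues' promoters were also above that median, at 80.0% for ADAMTS2 and 75.2% for ADAMTS3. The GC box was matched 4 times in ADAMTS14, 2 times in PRF1, 0 times in TBATA and 1 time in SGPL1, and 42.6% of all promoters held it. A pair of the ADAMTS14 matches, 76 and 71 bases before the start, share 1 base. The aryl hydrocarbon receptor core GCGTG was matched 1 time in ADAMTS14, 175 bases before the start, and 2 times in SGPL1 but in neither PRF1 nor TBATA, and 32.2% of all promoters held it. The TATA box TATAAA, the CCAAT box, the AP-1 site TGANTCA and the CTCF core motif, searched on both strands, matched none of these 4 windows; they were found in 10.7%, 32.0%, 6.57% and 2.02% of all promoters. For PRF1 and TBATA the RefSeq start lies 18 and 24 bases inside the start given by the table, and TBATA has a second RefSeq promoter that was not used.

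All signal values below are on a common scale, obtained by dividing each library by 1 factor (between 0.816 and 1.21) computed with trimmed means over all genes. Library totals as deposited lay between 61135244 and 93113007. The values are a signal scaled by the authors rather than counts, and the read depth behind them is unknown. The low values of each library are whole multiples of 1 step, and the members ranged from 24 steps (TBATA in an auxin library) to 27015 steps (ADAMTS14 in a control library). The gene of the depleted protein, RAD21, had a mean of 6172 ± 1439 in the DMSO libraries and 6079 ± 262 after auxin (SD, n = 2 each); the degron acts on the protein, so this value does not check the depletion. Epithelial genes fitting the label were present: the 10 colorectal epithelial markers summed to between 58352 and 65442 in the 4 libraries, with KRT8, CDH1 and KRT19 contributing most.

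ADAMTS14 had a signal of 22902 and 25813 in the control libraries and of 3169 and 4571 in the auxin libraries. The groups lie far apart, and the higher auxin library is still well below the lower control library. The means were 24358 ± 2059 without and 3870 ± 991 with auxin (SD, n = 2 each), so that the auxin level was 15.9% of the control level. In bulk RNA, fewer cells with the transcript and less transcript per cell cannot be told apart, and the scaling removes any change in total RNA. The log2 fold change was -2.68 (SE 0.17), and when each auxin library was set against each control library in turn it ran from -3.03 to -2.32. Among the 12810 tested genes with a mean signal of at least 1000, this was the lowest log2 fold change. Without that limit on level, values reached -3.31 among tested protein-coding genes and -4.59 among all tested genes. Per kb of gene span, ADAMTS14 lay above 83.7% of the 17767 tested protein-coding genes in control and above 42.8% of them in auxin.

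**Figure D1:**
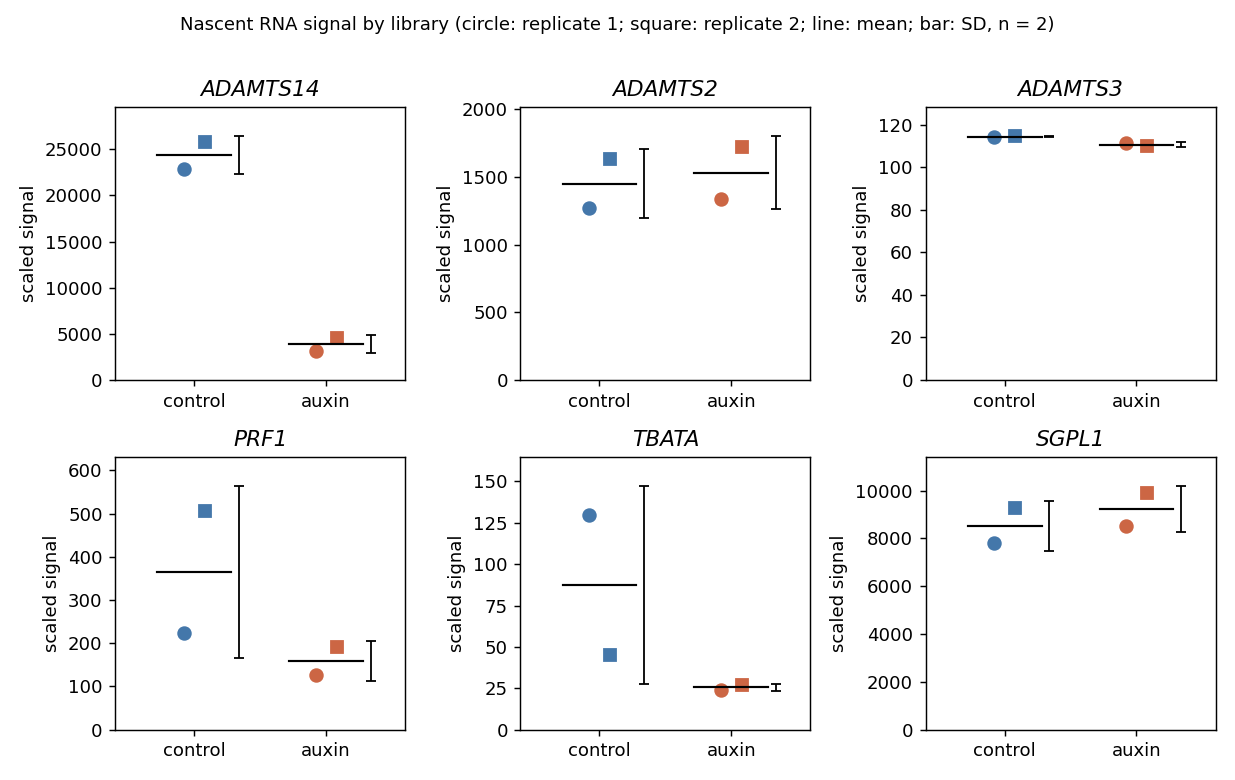
Scaled nascent RNA signal (y axis, from 0) of the 6 genes in each library, with control in blue and auxin in orange; circles are replicate 1, squares replicate 2, horizontal lines the mean and bars the SD (n = 2). ADAMTS14 goes from a mean of 24358 to 3870, PRF1 and TBATA are lower in auxin but their control libraries lie far apart, and ADAMTS2, ADAMTS3 and SGPL1 have nearly the same level in the 2 groups.

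Neither paralogue was called in limma, and both had log2 fold changes close to 0. ADAMTS2 had 1271 and 1629 in control and 1340 and 1721 in auxin. Its groups overlap almost fully, and the log2 fold change was 0.078 (SE 0.19, 95% interval -0.35 to 0.51; adjusted p = 0.97 in limma), with a negative sign when control replicate 1 (-0.092) or auxin replicate 2 (-0.10) was left out. ADAMTS3 had 114.4 and 114.6 in control and 111.5 and 110.04 in auxin. Both auxin values are lower, but by under 5 units, and 19.6% of all tested genes had both auxin libraries below both control libraries. The log2 fold change of ADAMTS3 was -0.048 (SE 0.26, 95% interval -0.63 to 0.53; adjusted p = 0.989 in limma). Per kb, ADAMTS2 had 6.18 in control and ADAMTS3 0.397, against 270.8 for ADAMTS14, and so the gene with the lower signal was also by far the strongest of the 3 in these cells. Of the genes whose starts lie nearest to the paralogues' starts, AC104117.2 (log2 fold change 0.15) and HNRNPA1P67 (0.014) were tested and had limma adjusted p-values of 0.944 and 0.997, AC109479.3 was listed at 0 in all libraries, and AC095056.1 was listed at 0 in both auxin libraries.

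The neighbours on chromosome 10 differed among themselves. PRF1 had 225 and 506 in control and 127 and 191 in auxin. Every auxin value is below every control value, though the 2 control libraries differ 2.25-fold, a larger difference than that of 98.4% of genes of similar level. The mean went from 365 ± 199 to 159 ± 45.4 (SD, n = 2 each), with a log2 fold change of -1.11 (SE 0.36, limma unadjusted p = 0.0118, adjusted p = 0.265). The value depended on which control library was used: it was -1.69 without control replicate 1 (adjusted p = 0.0342) and -0.53 without control replicate 2 (adjusted p = 0.665), and it was -1.41 without auxin replicate 2 (adjusted p = 0.0139).

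TBATA had 129.7 and 45.02 in control and 24.1 and 26.9 in auxin. Again the groups do not overlap, but control replicate 1 stands 2.88-fold above control replicate 2, a larger difference than that of 97.9% of genes of similar level. The mean went from 87.4 ± 59.9 to 25.5 ± 2.04 (SD, n = 2 each), with a log2 fold change of -1.55 (SE 0.48, limma unadjusted p = 0.00909, adjusted p = 0.238). The value moved to -0.79 when control replicate 1 was left out and to -2.30 when control replicate 2 was (adjusted p = 0.59 and 0.0612). The control library that is high for TBATA is the one that is low for PRF1.

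SGPL1 had 7797 and 9260 in control and 8540 and 9912 in auxin, so that its groups overlap. The means were 8529 ± 1035 and 9226 ± 970.2 (SD, n = 2 each), which is 0.11 ± 0.14 (SE) as a log2 fold change (95% interval -0.19 to 0.42, adjusted p = 0.903 in limma); without control replicate 1 it was -0.00018. Of the 5 members other than ADAMTS14, 0 passed an adjusted p of 0.05 in limma and 2, PRF1 and TBATA, had an unadjusted p under 0.05. Over all 39464 tested genes, 0.732% were called at that threshold, 0.400% as lower and 0.332% as higher, and 10.2% had an unadjusted p under 0.05. Among the 17767 tested protein-coding genes, 1.17% were called and 2586 had an unadjusted p under 0.05.

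The signal of each neighbour was also expressed as a ratio to SGPL1 within each library, which no scaling of libraries can alter. ADAMTS14 over SGPL1 was 2.94 and 2.79 in control and 0.371 and 0.461 in auxin, a 6.92-fold lower geometric mean. PRF1 over SGPL1 was 0.0288 and 0.0546 in control and 0.0148 and 0.0193 in auxin, and TBATA over SGPL1 was 0.0166 and 0.00486 in control and 0.00282 and 0.00272 in auxin. These ratios were lower in auxin by 2.35-fold for PRF1 and 3.25-fold for TBATA, with no overlap between groups. PCBD1 over SGPL1 did not overlap either (0.319 and 0.269 in control, 0.249 and 0.235 in auxin), while EIF4EBP2 over SGPL1 did. SGPL1 had a slightly higher mean in auxin (9226 against 8529), which lowers every such ratio. On the scaled signal, 19.6% of all tested genes had both auxin libraries below both control libraries. No such share was taken for ratios. With 2 libraries a group, the two-sided exact permutation test over 3 splits gives no p below 0.333, the value found for PRF1 and TBATA. Groups that do not overlap always return that value, so the test decides nothing here.

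The wider region was read from all genes within 1 Mb of ADAMTS14. The table holds 36 such genes, of which 30 passed the filter on low values, and ADAMTS14 is one of the 30. Of the other 29, 9 (31.0%) had both auxin libraries below both control libraries, against 19.6% of all tested genes, and 4 (13.8%) had both above, against 18.6%. In either direction the groups failed to overlap for 38.2% of all tested genes. Apart from ADAMTS14, 8 of 29 tested genes had an unadjusted p under 0.05 in limma, against 10.2% of all tested genes. Among these 8, AIFM2 was higher (log2 fold change 0.43) and the others lower. Not all entries are separate: PALD1 and YY1P1, a pseudogene nested in it, are among both the 8 and the 9. The 9 also hold UNC5B and the overlapping UNC5B-AS1. At the adjusted threshold 1 of the 29 (3.45%) was called, as lower, and 0 as higher, against 0.732% of all tested genes. That gene is PALD1 (ENSG00000107719, plus strand, chr10:70478767-70568450), which encodes a phosphatase-like protein of blood vessels and ends 104 kb before the start of ADAMTS14. PALD1 had 23231 and 24201 in control and 13023 and 16487 in auxin. Its libraries are close within the control group and all of them lie above the auxin libraries, and the log2 fold change was -0.69 (SE 0.13; adjusted p = 0.0425 in limma). The call sits near the threshold: the adjusted p was 0.0772 without the filter on low values, 0.0602 with a mean of at least 50, 0.0713, 0.142 and 0.0732 without control replicate 1, control replicate 2 and auxin replicate 1, and 0.999999 on the deposited scale, while the log2 fold change stayed between -0.87 and -0.52 when single libraries were left out. Without auxin replicate 2, 3 genes of the region including ADAMTS14 were called. Over SGPL1, PALD1 was 2.98 and 2.61 in control and 1.52 and 1.66 in auxin.

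**Figure D2:**
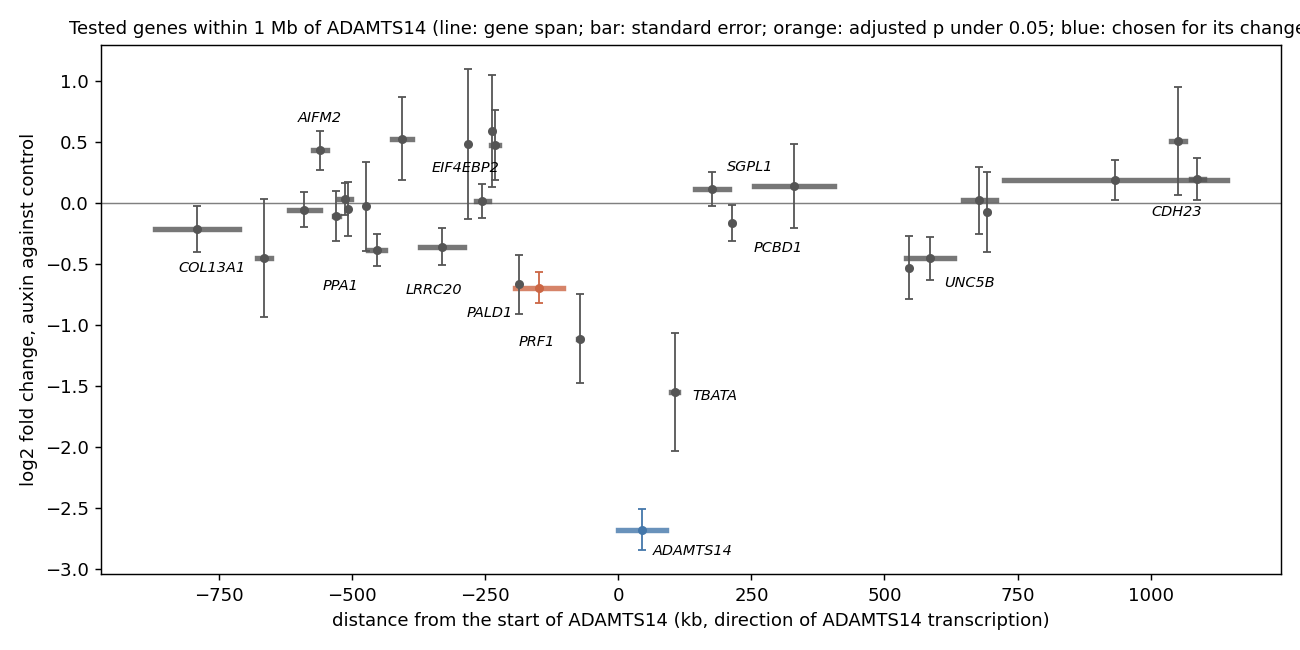
Log2 fold change with its standard error for the 30 tested genes within 1 Mb of ADAMTS14, placed by distance in kb from its start, with gene spans as thick lines; PALD1 (orange) has an adjusted p under 0.05 and ADAMTS14 (blue) was chosen for its change. Values run from -0.69 at PALD1 through -1.11 at PRF1 to -2.68 at ADAMTS14 and -1.55 at TBATA, and lie at 0.11 at SGPL1.

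Read along the chromosome, PALD1, its nested pseudogene YY1P1 (-0.67, SE 0.24), PRF1, ADAMTS14 and TBATA followed each other with negative log2 fold changes. YY1P1 lies within PALD1 and may share its signal. On the upstream side, the protein-coding gene before PALD1 is NODAL, a ligand of the TGF-beta superfamily, at 0.47 (SE 0.29; adjusted p = 0.677 in limma), and before it EIF4EBP2, a repressor of cap-dependent translation, at 0.018 (SE 0.14, adjusted p = 0.992). The sign of EIF4EBP2 turned on the deposited scale (-0.0021) and without auxin replicate 2 (-0.079). On the downstream side, SGPL1 was followed by PCBD1, a dehydratase of tetrahydrobiopterin recycling, at -0.16 (SE 0.15, adjusted p = 0.847).

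The other protein-coding genes within 500 kb also failed the threshold. LRRC20 had -0.36 (limma adjusted p = 0.452), PPA1, a cytosolic pyrophosphatase, -0.38 (0.297), NPFFR1, a neuropeptide receptor, 0.53 (0.711), and UNC5B, a netrin receptor, -0.45 (0.392). Within 500 kb and without ADAMTS14, the median log2 fold change of the 17 tested genes was -0.16, and within 1 Mb that of 29 genes was -0.050, against 0.0089 over all tested genes. The stretch is given as a description, with no test of its length.

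Within the ADAMTS family of secreted proteases, 18 of the 19 genes passed the filter and ADAMTS1 did not. Of the 17 other than ADAMTS14, 0 were called in limma (0 at an unadjusted p under 0.05), with 11 log2 fold changes above 0 and 6 below, and a median of 0.078. With 0.732% of all tested genes called, a count of 0 among 17 genes is near the background and is no result about the family. Values ran from -0.42 at ADAMTS15 to 1.40 at ADAMTS5, an aggrecanase with very little signal here (5.93 and 6.14 in control, 12.5 and 24.7 in auxin; limma adjusted p = 0.51).

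The order of levels per kb shows how far ADAMTS14 stood above its relatives. In control it had 254.6 and 287 per kb, and the next gene, ADAMTS17, had 45.8 and 39.6, a 6.34-fold lower mean. No relative's control libraries overlapped those of ADAMTS14. In auxin ADAMTS14 had 35.2 and 50.8 per kb, and the libraries of 3 relatives then overlapped its range: ADAMTS17, ADAMTS13, the protease that cleaves von Willebrand factor, and ADAMTS7. The value of ADAMTS7 is uncertain, since pseudogene copies of it in the table may share its reads. That of ADAMTS13 rests on a deposited span of only 3.74 kb, with a signal of 137 and 156 in control and 169 and 143 in auxin. Its place in the order per kb is uncertain for that reason. ADAMTS16 (32.6 in control) and ADAMTS10 (27.9) followed, then ADAMTS2 (6.18), and the remaining 12 genes lay at 3.49 per kb or lower. Of the 18 pairs of neighbours in the control order, 9 overlapped in their libraries and so cannot be ordered beyond their spread.

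**Figure D3:**
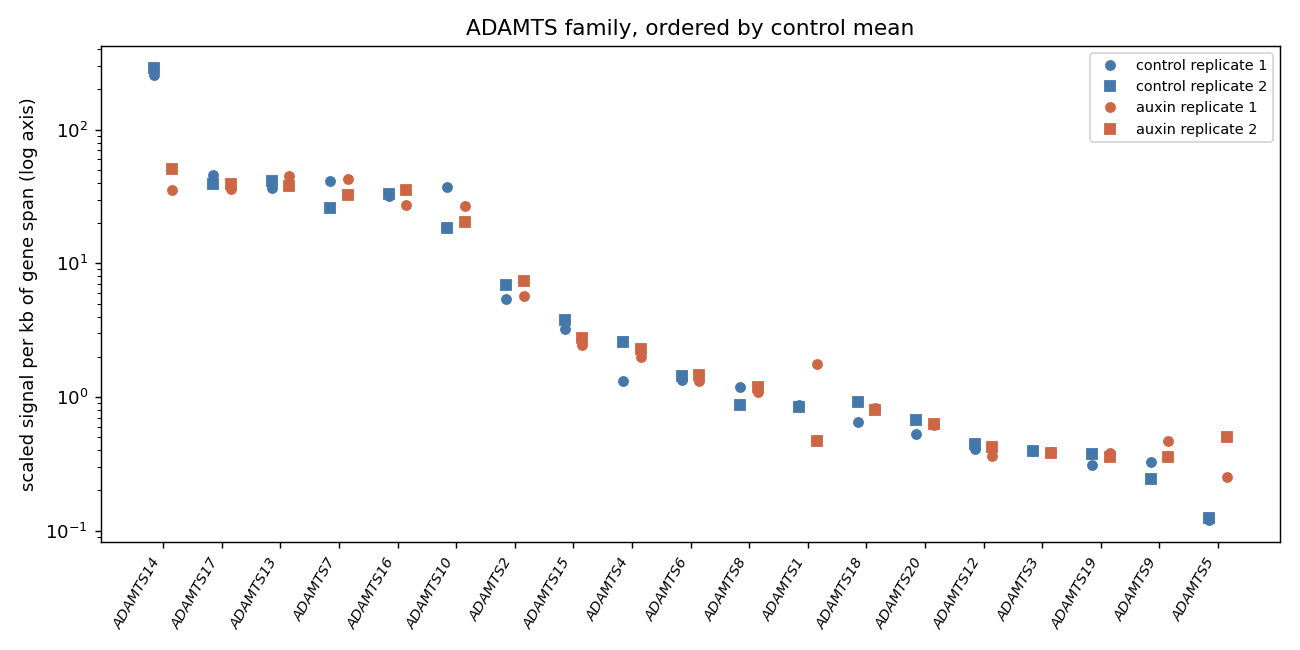
Scaled signal per kb of gene span (log axis) for the 19 ADAMTS genes, ordered by control mean, with control libraries in blue and auxin libraries in orange, circles for replicate 1 and squares for replicate 2. ADAMTS14 lies at 255 and 287 in control and joins ADAMTS17, ADAMTS13 and ADAMTS7 at 35.2 and 50.8 in auxin.

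In terms of the whole family's signal, ADAMTS14 made up 44.4% and 50.1% of the sum over the 19 genes in the control libraries and 11.6% and 14.8% in the auxin libraries. The summed signal of the family was 51543 and 51519 in control and 27313 and 30976 in auxin. That sum includes ADAMTS14, which was chosen for its change, and so it is no result about the rest of the family. ADAMTS17, with a span of 371 kb, had the largest summed signal of the family in auxin, although its own mean went from 15819 to 13984 (change -0.18 ± 0.12 on the log2 scale, SE; adjusted p = 0.738 in limma).

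Genes related to the N-proteinases by structure or by process were read as lists. The ADAMTS-like genes encode related secreted proteins that lack the protease domain. All 7 were tested and 1 (14.3%) was called in limma, against 0.732% of all tested genes and 1.17% of tested protein-coding genes. The gene called, as lower, is THSD4 (ADAMTSL6), which encodes a protein that binds fibrillin microfibrils. THSD4 had 21625 and 20737 in control and 12192 and 13101 in auxin, which is -0.74 ± 0.11 (SE) as a log2 fold change (adjusted p = 0.0146 in limma). Its control and auxin libraries are each tightly grouped and far apart, and the adjusted p was 0.0502 without control replicate 2, where the log2 fold change was -0.78, and 0.999999 on the deposited scale, where it was -0.76 with an SE of 0.42. The span of THSD4 overlaps 6 other genes of the table, such as THSD4-AS1. The list's median was -0.11.

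The fibrillar procollagens include the substrates of the N-proteinases. Of 11 genes, 10 passed the filter and 0 were called in limma (1 at an unadjusted p under 0.05), against 0.732% and 10.2% of all tested genes. The median log2 fold change was -0.0043, with 5 above 0 and 5 below. COL1A1, a chain of type I collagen and the main substrate in skin, had 577 and 732 in control and 893 and 998 in auxin (change 0.54 ± 0.20 on the log2 scale, SE; adjusted p = 0.335 in limma). COL1A2, the partner chain of type I collagen, was at most 5.36 in any library and did not pass the filter. COL27A1 had the largest summed signal over its span, at 11379 and 8351 in control and 9640 and 9146 in auxin, values that overlap.

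The procollagen maturation list holds the C-proteinases, the hydroxylases and chaperones of the endoplasmic reticulum, the lysyl oxidases that crosslink collagen and the convertases that activate ADAMTS zymogens. All 31 genes were tested, with a median of -0.12. In limma 1 (3.23%) was called as higher and 0 as lower, against 0.732% of all tested genes. An unadjusted p under 0.05 was found for 10 of the 31 genes, a larger share than the 10.2% of all tested genes. Protein-coding genes are the closer background: 1.17% of the 17767 tested were called, and 2586 had an unadjusted p under 0.05. Of the 10 list genes with such a p, 7 were below 0 and 3 above. Examples below 0 that missed the adjusted threshold were the convertase PCSK6 (-0.76, adjusted p = 0.0861 in limma) and the collagen galactosyltransferase COLGALT1 (-0.57, adjusted p = 0.0643). The gene that rose was LOXL2, a lysyl oxidase that crosslinks collagen and elastin. LOXL2 had 6557 and 5606 in control and 12447 and 17751 in auxin, which is 1.29 ± 0.17 (SE) as a log2 fold change (adjusted p = 0.00821 in limma), and its span overlaps ENTPD4 and AC090197.1. On the deposited scale LOXL2 had 1.27 ± 0.41 (SE) and an adjusted p of 0.458. Without auxin replicate 1, 2 genes of this list were called, 1 in each direction.

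The remaining lists held no call in limma, against 0.732% over all genes, and the counts at an unadjusted p under 0.05 stand against 10.2% over all genes. Among tested protein-coding genes, 1.17% were called, and 2586 of 17767 had an unadjusted p under 0.05. Of 6 metalloprotease inhibitors, 2 had such a p, in opposite directions: TIMP2 had the smallest (log2 fold change -0.41, limma adjusted p = 0.204) and TIMP3 had 0.59 (adjusted p = 0.476). Of the 6 log2 fold changes, 4 were above 0, with a median of 0.21. Of 7 genes around VEGF-C, 0 had such a p, and 6 of the 7 log2 fold changes were below 0, with a median of -0.26. The smallest p belonged to VEGFD, the one gene above 0 (0.66, adjusted p = 0.64); VEGFC itself was low, at 86.5 and 50.1 in control and 47.2 and 61.8 in auxin. Of 20 tested genes of sphingosine-1-phosphate metabolism, the pathway of SGPL1, 3 had an unadjusted p under 0.05, with a list median of -0.012 and the smallest p at PLPP2, a lipid phosphate phosphatase (-0.42, adjusted p = 0.295).

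**Figure D4:**
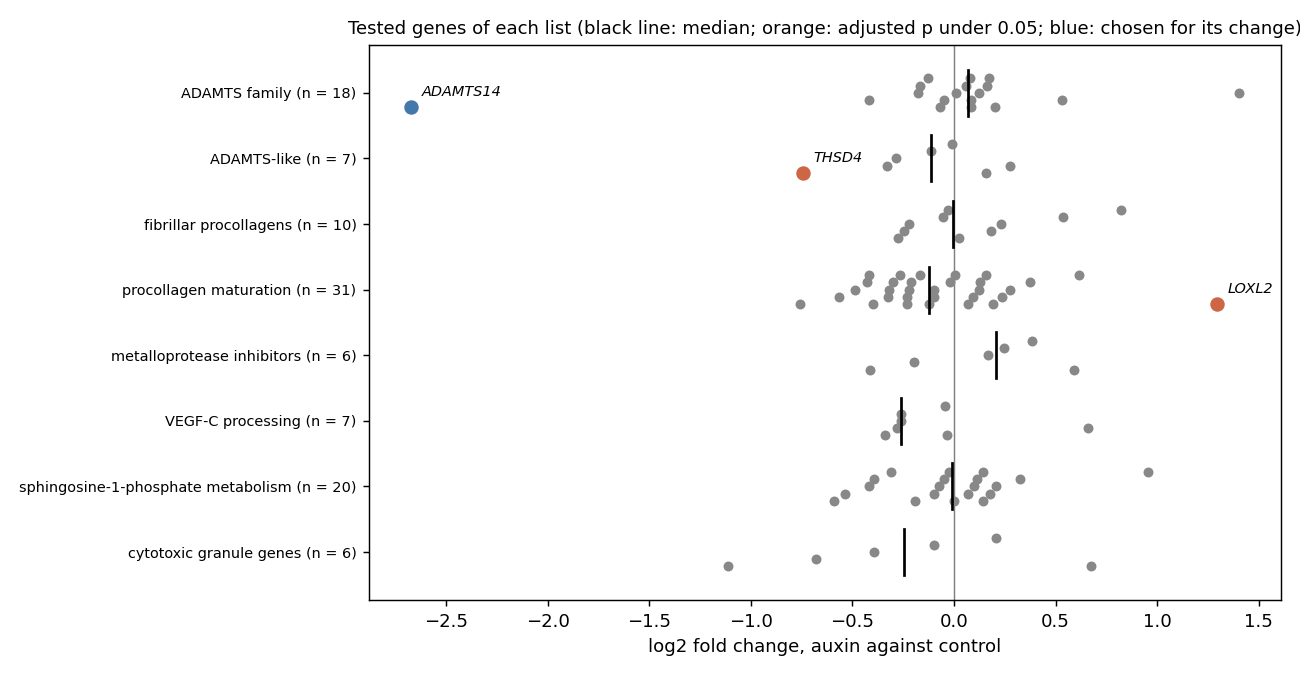
Log2 fold change of each tested gene in 8 lists, with the list median as a black line; genes with an adjusted p under 0.05 are orange (THSD4 at -0.74 and LOXL2 at 1.29), and ADAMTS14 (blue, -2.68) was chosen for its change. The medians lie between -0.26 (VEGF-C processing) and 0.21 (metalloprotease inhibitors).

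PRF1 is a gene of cytotoxic lymphocytes, so the other genes of the cytotoxic granule were read beside it. Of 12 genes, 6 passed the filter and 0 were called in limma (2 at an unadjusted p under 0.05). Here and for the marker lists below, the shares over all tested genes were 0.732% called and 10.2% at an unadjusted p under 0.05. Over tested protein-coding genes, 1.17% were called and 2586 of 17767 had such a p. GZMH and FASLG were listed at 0 in all libraries, and GZMB, GZMK, GZMA and NKG7 were at most 7.63 in any library. CTSC, a peptidase that activates granzymes and is made in many cell types, had the smallest p (log2 fold change -0.68, limma adjusted p = 0.176). The 10 lymphocyte markers summed to between 1132 and 1270 in the 4 libraries, carried mainly by CD247, NCAM1 and CD8A, while CD3D and CD3E were at most 6.14; 0 were called (0 at an unadjusted p under 0.05), and the smallest p belonged to CD8A (0.35, adjusted p = 0.726). The 9 fibroblast markers summed to 848 and 1024 in control and 1203 and 1400 in auxin, the defining genes DCN and LUM being at most 26.6, and 0 were called (1 at an unadjusted p under 0.05, COL1A1). Of the epithelial markers 0 were called (3 at an unadjusted p under 0.05), with 8 of 10 log2 fold changes below 0, 2 above and a median of -0.22. The smallest p belonged to CDH1, which lay above 0 (0.55, adjusted p = 0.0578), while KRT19 (-0.37, adjusted p = 0.261) and KRT8 (-0.26, adjusted p = 0.47) lay below.

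The genes whose pattern over the 4 libraries was most like that of ADAMTS14 were sought among the other 12809 genes with a mean of at least 1000, by the Euclidean distance between log2 signals after removal of each gene's mean. The nearest was IRS1, an adaptor of insulin signalling (distance 0.722), followed by SOX9, a transcription factor of intestinal progenitors (0.762), HS3ST1, a heparan sulfate sulfotransferase (0.786), CNTNAP3C (0.835) and F3, tissue factor (0.843). IRS1 had 11448 and 12143 in control and 2825 and 2831 in auxin, and SOX9 had 4526 and 6526 in control and 1257 and 1507 in auxin. The 5 genes were chosen by their values in this comparison, and their log2 fold changes, from -2.06 to -1.92, are a description. CNTNAP3C is uncertain, because it belongs to a group of near-identical copies. The 5 genes lie on chromosomes 2, 17, 4, 9 and 1. PRF1 and TBATA, with means of 262 and 56.4, were below the limit of 1000 and could not be returned. The distance also grows with any difference in the size of the fall, so the list says nothing about the region of ADAMTS14.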

How the data were processed

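The authors deposited 1 table with a scaled signal per gene and library. The submitters' processing notes name Trimmomatic 0.39, Bowtie2 2.4.5 and deepTools 3.5.1 and the builds hg38 and dm6, without their roles. The scaling, counting and annotation are not given in the sources used here. A column with a misspelt name was assigned to control replicate 2. In each library 100% of values up to 20 steps were within 0.1 of a whole number of steps (0.728 to 1.36 each), but only 2 to 8 genes spanning at least 10 kb held 1 step while 305 to 433 held 2 or 3, so steps were not treated as reads and no count test was run. Fly RNA was added, but its use in scaling is not stated. The library kit is strand-specific, per the labels; whether strand was used for the table is not stated. Table starts count from 0 (19990 of 37746 matched genes start 1 base before RefSeq) and are printed 1 higher.

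R 4.3.3 was used with limma 3.58.1. Testing was limited to genes whose sum was 15 or more and for which 2 or more libraries held a value equivalent to 10 at the median library total. Scaling between libraries used the trimmed mean of M-values, with 30% of ratios and 5% of levels removed at each end. After adding a pseudocount of 1, log2 values of auxin and control libraries were compared by lmFit and eBayes (trend on level), with Benjamini-Hochberg adjustment over all 39464 tested genes at 0.05. Because fold changes come from log2(value + 1), those of low genes are understated. Fold changes printed as ratios of means have no pseudocount. The procedure was tested on simulated data.

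Named genes were the members, list genes with an adjusted p under 0.05 (otherwise the smallest p of the list), protein-coding genes within 500 kb and called genes within 1 Mb of ADAMTS14, the nearest starts beside each paralogue, and the 5 nearest profiles. Others (YY1P1, AIFM2, UNC5B-AS1, COL1A2, COL27A1, VEGFC, PCSK6, COLGALT1, TIMP3, ADAMTS relatives and marker genes) were named after their values were seen. Members and lists were chosen with earlier results of these data known. RefSeq promoters matched all 6 members. Python 3.11.15, pandas 2.3.3 and matplotlib 3.10.9 were used for sequences and figures.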

Additional observations from a re-analysis of the deposited data

How the results depend on the processing

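ADAMTS14 kept its sign under every alternative run, from -2.94 to -2.40 with single libraries left out and from -2.69 to -2.64 over the scalings. The calls of lists and region depended on the settings, and with 2 libraries a group and an unknown read depth, low genes such as TBATA and ADAMTS3 are the least certain. Nothing in the labels ties same-numbered libraries together, so the pairing rests on the data alone: across genes, the replicate differences of control and auxin had a Pearson's r of 0.231 and a Spearman's rho of 0.306, and r was 0.462 where the mean signal was 50 or more. Under the replicate block, limma's prior degrees of freedom were infinite. Each p-value then used the spread fitted over all genes by level, and none of the gene's own spread. In that fit 4273 genes were called, 9 of them within 1 Mb of ADAMTS14. PRF1 (log2 fold change -1.11, adjusted p = 1.74e-06) and TBATA (-1.55, 7.89e-04) passed the threshold there. Those p-values take no account of the wide difference between the control libraries of both genes. The block called 10 procollagen maturation genes, 5 of sphingosine-1-phosphate metabolism, 3 epithelial markers, 2 metalloprotease inhibitors, 2 cytotoxic granule genes, and 1 each of the fibrillar procollagens, VEGF-C genes and fibroblast markers. On the deposited scale 55 genes were called, 1 of them within 1 Mb, with 0 ADAMTS-like and 0 procollagen maturation genes: there LOXL2 (1.27, adjusted p = 0.458), THSD4 (-0.76) and PALD1 (-0.71) kept their sign and missed the threshold. Within 1 Mb, 1 gene was called without the filter and with a mean of at least 50. By library size only, 1 epithelial marker (CDH1, adjusted p = 0.0394) was called. A threshold of 0.01 left 82 genes. Leaving out 1 library gave between 132 (without control replicate 2) and 681 (without auxin replicate 1) genes in all, 1 to 3 within 1 Mb, 0 to 1 ADAMTS-like, 1 to 2 procollagen maturation and 0 to 1 cytotoxic granule genes, and log2 fold changes from -0.10 to 0.27 for ADAMTS2, -1.69 to -0.53 for PRF1, -0.00018 to 0.24 for SGPL1 and -0.079 to 0.12 for EIF4EBP2, which was -0.0021 on the deposited scale. The causes were not tested.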
